A study of Homo sapiens with 6 samples.

Results

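The ATF4 amino acid response is described here through 33 genes, compared between T24 cells with constitutively active RhoC and T24 cells with the vector. The genes were taken by symbol: ATF4 itself, 4 other transcription factors, and genes widely described as ATF4 targets that make, import or charge amino acids or feed back on the response. Each of the 33 symbols matched 1 Ensembl row among the 58882 rows of the series. T24 is an established line from a human transitional cell carcinoma of the urinary bladder. Both groups were transduced by lentivirus and selected with puromycin. The VEC libraries (n = 3) carry the vector, and the Q63E libraries (n = 3) stably express the constitutively active RhoC mutant Q63E. The labels name neither the promoter of the transgene nor a clone, and they leave unsaid whether the replicates came from separate cultures. All p-values therefore rest on the spread among libraries, and that spread may be technical. Levels are given as FPKM (fragments scaled to transcript length and to library size), a unit inferred from the values.

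ATF4 is a basic leucine zipper transcription factor whose protein output is set largely at translation. Kinases that sense amino acid shortage, unfolded protein in the endoplasmic reticulum, haem deficiency or double-stranded RNA phosphorylate the initiation factor eIF2. General translation then falls, while ATF4 mRNA is translated better. With partners of the C/EBP family, ATF4 binds composite C/EBP-ATF response elements and raises genes for amino acid synthesis, transport and tRNA charging. A transcript level of ATF4 is therefore not a measure of its protein, which was not measured.

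Summed FPKM ran from 726929 to 769026 per library. RHOC, the gene of the transgene, had values of 232, 218 and 232 in VEC and 1770, 1726 and 1744 in Q63E, a 7.69-fold difference. The epithelial keratins KRT7, KRT8 and KRT18 lay between 507 and 1512 in all 6 libraries and were higher in Q63E (log2 fold changes of 0.49, 0.76 and 0.61). Another keratin, KRT19, had means of 5.67 in VEC and 161 in Q63E, EPCAM 0.313 and 1.52, and PPARG, a factor of urothelial differentiation, 13.2 and 21.3. KRT7, KRT8, KRT18, KRT19 and PPARG thus differed between the groups. GATA3, another urothelial marker, went the other way, with means of 1.79 in VEC and 0.363 in Q63E, but its groups overlapped. Its log2 fold change of −0.95 had a limma adjusted p of 0.121. KRT20 did not exceed 0.16 in any library. The uroplakins of differentiated urothelium (UPK1A, UPK1B, UPK2, UPK3A) did not exceed 0.53 and CDH1 (E-cadherin) was listed at 0 throughout. Markers of leukocytes and endothelium did not exceed 0.49, and of 5 fibroblast markers COL1A1 was the highest at up to 2.63. Mitochondrially encoded genes held 8.44% to 9.44% of the summed value in VEC and 5.58% to 6.27% in Q63E. With libraries scaled to equal totals without these genes, all 13 calls among the 33 genes described below were kept and 0 were gained.

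The 33 genes did not move in 1 direction. Tested over all genes with limma, 31 of the 33 reached the minimum mean FPKM of 1, and 13 of these 31 (41.9%) passed the threshold of an adjusted p of 0.05, beside 25.3% of all 13346 genes tested. In Q63E 7 were higher (11.3% of all genes were) and 6 were lower (14% of all genes). The 33 genes were chosen with earlier results of these data known, so these shares are set side by side as a description only. The median log2 fold change of the 31 genes was −0.07, and that of all tested genes was −0.002. Genes higher in Q63E were TRIB3, PHGDH, SLC7A5, SLC3A2, AARS1, SARS1 and MARS1. Genes lower in Q63E were ATF4, ATF5, CHAC1, PSAT1, PCK2 and IARS1. The 3 Q63E libraries did not overlap the 3 VEC libraries for 21 of the 31 genes, 8 higher and 13 lower. Over all genes tested, 43.9% did not overlap, 21.1% higher and 22.8% lower.

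**Figure D1:**
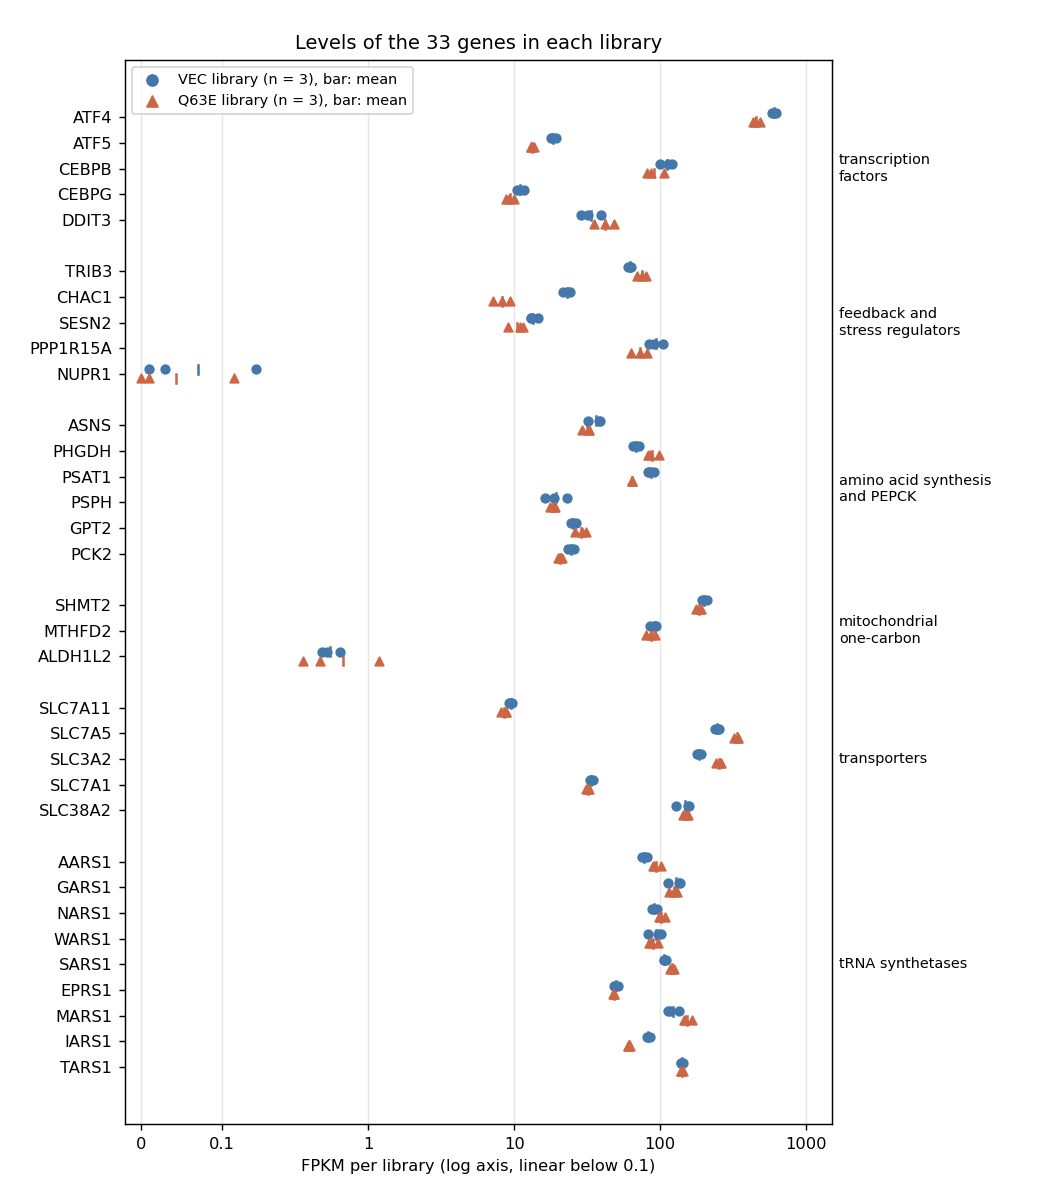
FPKM of each of the 33 genes in each library on a log axis that is linear below 0.1, with VEC libraries as circles, Q63E libraries as triangles (n = 3 each) and group means as bars, ordered by role. ATF4 is the highest of the 33 genes in every library, NUPR1 and ALDH1L2 are the lowest, and CHAC1 shows the widest gap between the groups.

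Around several of the 33 genes most neighbours moved in 1 direction, so each gene was also set beside its neighbours. For each tested gene and in each library, the median deviation from the VEC mean was taken over the nearest 25 tested genes on either side, leaving out the 33 genes. That library's median was subtracted from the gene's log2 value before a further fit of all genes. The neighbour median quoted below is the mean of these medians over the 3 Q63E libraries. After the subtraction 17.4% of all genes passed, 8.27% higher and 9.12% lower. Of the 31 genes 7 passed: TRIB3, SLC7A5 and SLC3A2 were higher, and ATF5, CHAC1, PCK2 and IARS1 were lower. All 7 had passed with the values as deposited. ATF4, PSAT1, PHGDH, SARS1, AARS1 and MARS1 no longer passed.

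**Figure D2:**
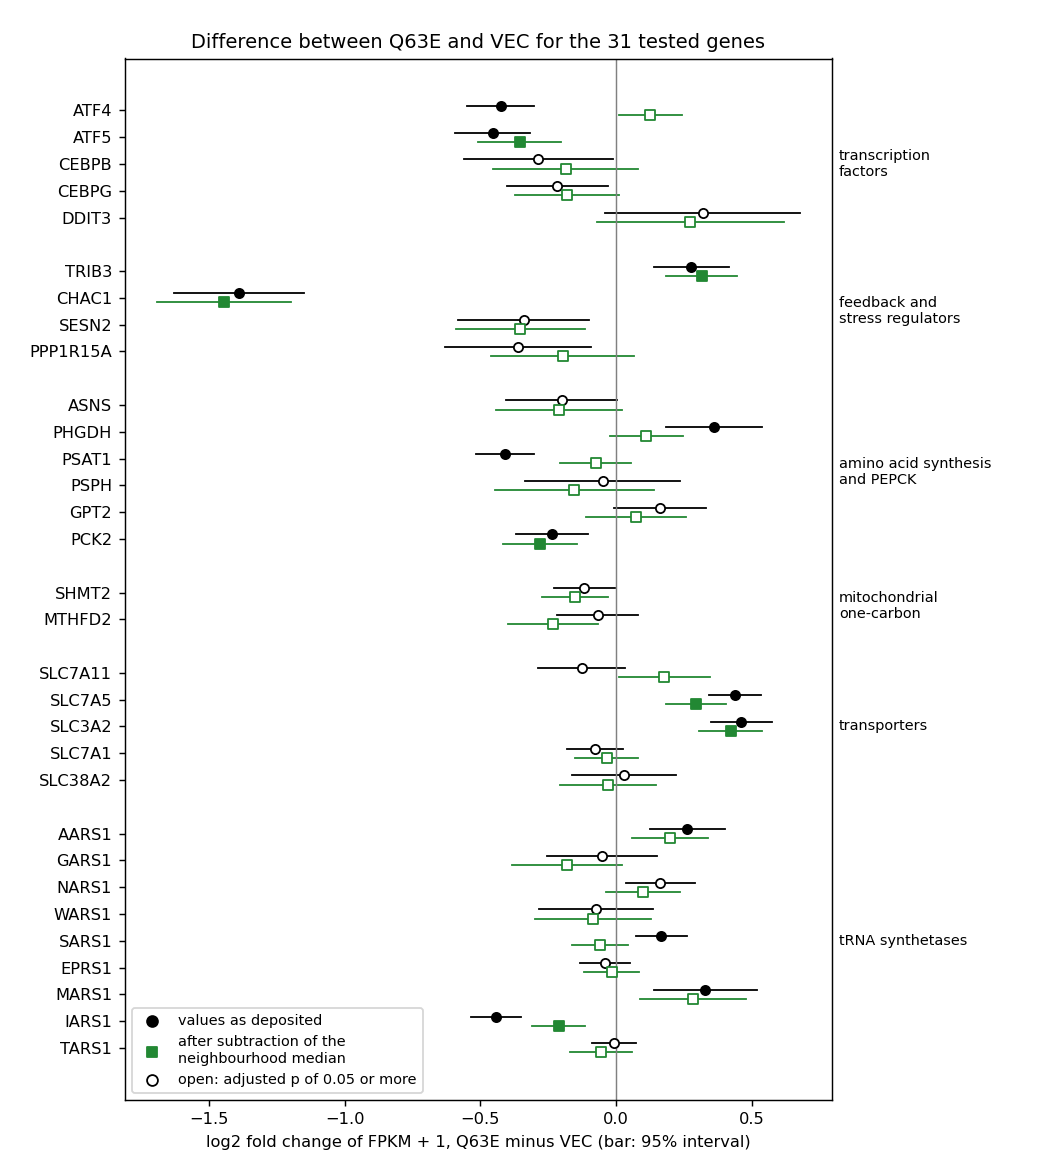
Log2 fold change of FPKM + 1 (Q63E minus VEC) with its 95% interval for the 31 tested genes, from the values as deposited (circles) and after subtraction of the neighbourhood median (squares), filled where the adjusted p is below 0.05. The ATF4 estimate moves from −0.43 to 0.13, that of PSAT1 from −0.41 to −0.07, and that of CHAC1 from −1.39 to −1.45.

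Promoter windows of RefSeq (GRCh38.p14, 250 bases before to 50 after an annotated start) were at hand for 27 of the 33 genes. They were searched on both strands for TGATGCAA, the core of the C/EBP-ATF response element, whose complement reads TTGCATCA. It was found in windows of 7 of the 27 genes (25.9%), beside 295 of all 27305 genes with a window (1.08%). A wider form, TGATGNAA, which includes the core, was found for 11 of the 27 genes (40.7%) and for 4.46% of all genes. Several of these genes are known for such elements, so the excess is a description. The 7 genes with the core were CHAC1, IARS1, MARS1, AARS1, CEBPG, NARS1 and TARS1. Of these, MARS1 and AARS1 were higher in Q63E, CHAC1 and IARS1 were lower, and CEBPG, NARS1 and TARS1 did not pass. The stretches around the core are shown for the 5 with the largest change, each on the strand of its gene from 5′ to 3′ with the core in capitals.
CHAC1, chr15:40953251-40953280, plus strand: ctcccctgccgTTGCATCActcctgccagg
IARS1, chr9:92293692-92293721, minus strand: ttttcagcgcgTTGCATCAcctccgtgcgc
MARS1, chr12:57488053-57488082, plus strand: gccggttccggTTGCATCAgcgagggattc
AARS1, chr16:70289675-70289704, minus strand: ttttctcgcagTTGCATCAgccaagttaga
CEBPG, chr19:33374060-33374089, plus strand: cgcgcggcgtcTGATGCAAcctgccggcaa

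The core began 209 bases before the annotated start in CHAC1, 187 in AARS1, 42 in CEBPG, 13 in IARS1 and 4 in MARS1. The same 8 letters in the same orientation began before the annotated start of CHAC1 and IARS1, called lower, and of MARS1 and AARS1, called higher. After the neighbourhood subtraction MARS1 and AARS1 no longer passed (limma adjusted p = 0.0581 and 0.0658). A relation between the core and the direction of change was not tested. In the GENCODE models the stretches of CHAC1, IARS1 and MARS1 fall within exons of transcripts with earlier starts, that of CEBPG within an intron, and that of AARS1 before the gene, in an exon of DDX19B. ASNS, whose element is a textbook amino acid response element, held only the wider form, as TGATGAAA beginning 68 bases before a start.

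Among the transcription factors, ATF4 and ATF5 were lower in Q63E and no gene was higher. ATF4 (ENSG00000128272, chromosome 22 from 39519695 to 39522685 on the plus strand) had values of 587, 606 and 624 in VEC and 443, 482 and 429 in Q63E. Every Q63E library lay below every VEC library. The mean fell from 606 ± 18.8 to 451 ± 27.5 (SD, n = 3 each), with a log2 fold change of −0.43 (SE 0.05, adjusted p = 0.00206). Of its 50 neighbours 47 were lower in Q63E, with a median of −0.55, and 34 of them had a more negative log2 fold change than ATF4. After the neighbourhood median was subtracted ATF4 had a log2 fold change of 0.13 (adjusted p = 0.132), so it fell less than the median of the genes beside it. Pseudogenes named after ATF4 had group means of at most 0.27.

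ATF5, a relative of ATF4 that is itself induced in the response, fell too (ENSG00000169136, chromosome 19 from 49928702 to 49933935). Its values were 18.1, 19.3 and 17.8 in VEC and 13.6, 12.9 and 12.9 in Q63E. The groups were apart, and the log2 fold change was −0.46 (SE 0.06, adjusted p = 0.00248). The call held in all 13 alternative fits, with a log2 fold change of −0.35 (adjusted p = 0.0135) after the neighbourhood subtraction. Exons of ATF5 share 626 bases with NUP62 on the other strand (36.1 in VEC and 32.9 in Q63E), and without stated strandedness reads there cannot be told apart.

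CEBPB and CEBPG encode C/EBP proteins that pair with ATF4. CEBPB had values of 99.0, 119 and 114 in VEC and 106, 80.6 and 86.3 in Q63E, with Q63E replicate 1 inside the VEC range. Its log2 fold change of −0.29 did not pass (95% interval −0.56 to −0.01, adjusted p = 0.117), although it passed without Q63E replicate 1 (adjusted p = 0.0371). CEBPG was lower in every Q63E library (8.80 to 10.01, against 10.4 to 11.7 in VEC), but its log2 fold change of −0.22 did not pass either (adjusted p = 0.0892). DDIT3, which encodes CHOP, a factor tied to cell death under lasting stress, had values of 39.4, 32.2 and 28.6 in VEC and 41.8, 48.6 and 35.2 in Q63E. The groups overlapped, and its log2 fold change of 0.32 had an interval from −0.04 to 0.68 (adjusted p = 0.172). DDIT3 shares 355 of its 1307 exonic bases with MARS1, which lies on the opposite strand at a higher level (121 in VEC and 152 in Q63E), so reads there cannot be told apart.

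The feedback and stress regulators split in direction, and this group held the largest change of the 33 genes. CHAC1 encodes an enzyme that degrades glutathione (ENSG00000128965, chromosome 15 from 40952962 to 40956519). It had values of 21.7, 23.5 and 24.04 in VEC and 7.11, 8.27 and 9.31 in Q63E. The highest Q63E library lay far below the lowest VEC library, as the plot of levels by library shows. The mean was 2.80 times as high in VEC (23.1 ± 1.25) as in Q63E (8.23 ± 1.10), with a log2 fold change of −1.39 (SE 0.10, adjusted p = 0.000337). The call held in all 13 alternative fits. Its neighbours had a median of 0.05, and after subtraction the log2 fold change was −1.45 (adjusted p = 0.000454). CHAC1 fell more than ATF4 did: its FPKM was 0.0381 ± 0.00101 of that of ATF4 in VEC and 0.0183 ± 0.003 in Q63E, a ratio chosen after the values were seen.

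TRIB3, a pseudokinase that binds ATF4 and restrains it, rose. Its values were 63.05, 59.9 and 62.1 in VEC and 75.0, 80.4 and 69.7 in Q63E, with the groups apart. The log2 fold change was 0.28 (SE 0.06, adjusted p = 0.0162), and 0.31 (adjusted p = 0.0116) after the neighbourhood subtraction. It did not pass without VEC replicate 2 (adjusted p = 0.0529), VEC replicate 3 (0.0506) or Q63E replicate 1 (0.0538). TRIB3 and CHAC1, both regarded as ATF4 targets, thus passed in opposite directions.

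SESN2 encodes a leucine sensor that holds back the growth kinase complex mTORC1. It had 12.97, 12.96 and 14.5 in VEC, and in Q63E it ran from 9 to 11.5. The groups did not overlap, yet its log2 fold change of −0.34 missed the threshold (95% interval −0.58 to −0.10, adjusted p = 0.0509) and passed with a pseudocount of 0.1 (0.0491). PPP1R15A, also called GADD34, directs a phosphatase to eIF2 and so ends the response. Its values were 83.6, 91.2 and 105 in VEC and 73.1, 80.8 and 63.5 in Q63E, again without overlap and without a call (log2 fold change −0.36, adjusted p = 0.0589). NUPR1, a small stress-induced nuclear protein, did not exceed 0.17 in any library and was not tested.

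Among the enzymes of amino acid synthesis, calls differed between the 3 steps from a glycolytic intermediate to serine. Differences between these genes were not tested. PHGDH, the first enzyme (ENSG00000092621, chromosome 1 from 119648411 to 119744226), had values of 71.8, 67.9 and 65.2 in VEC and 84.6, 97.6 and 82.3 in Q63E. It was higher in every Q63E library, with a log2 fold change of 0.36 (SE 0.07, adjusted p = 0.0146, and 0.0536 without VEC replicate 3). PSAT1, the transaminase that follows (ENSG00000135069, chromosome 9 from 78297143 to 78330093), had 90.6, 82.5 and 84.3 in VEC and 63.7, 64.5 and 64.5 in Q63E. It fell in every Q63E library, with a log2 fold change of −0.41 (SE 0.04, adjusted p = 0.0014). PSPH, the phosphatase that releases serine, had 16.2, 18.8 and 22.9 in VEC and 18.9, 18.7 and 17.7 in Q63E. It overlapped between the groups, with a log2 fold change of −0.05 (95% interval −0.34 to 0.24, adjusted p = 0.791).

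The FPKM of PHGDH was 0.792, 0.823 and 0.774 of that of PSAT1 in the VEC libraries and 1.33, 1.51 and 1.28 in the Q63E libraries, so the order of these enzymes was exchanged between the groups. This ratio was chosen after the values were seen and was not tested. Neighbours of PSAT1 were lower in Q63E (median −0.33, 44 of 50 below 0) and neighbours of PHGDH were higher (0.25, 40 of 50 above 0). After subtraction neither gene passed, with a log2 fold change of −0.07 (adjusted p = 0.398) for PSAT1 and 0.11 (adjusted p = 0.233) for PHGDH.

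ASNS, the asparagine synthetase and a standard readout of ATF4 activity, had values of 38.3, 32.0 and 38.7 in VEC and 29.3, 32.6 and 32.3 in Q63E. VEC replicate 2 lay within the Q63E range, and the log2 fold change of −0.20 did not pass (95% interval −0.40 to 0.004, adjusted p = 0.137). Without VEC replicate 2 it was −0.29 and passed (adjusted p = 0.0328). PCK2, the mitochondrial form of phosphoenolpyruvate carboxykinase, was lower in Q63E, with means of 24.4 ± 1.06 in VEC and 20.5 ± 0.758 in Q63E. Its log2 fold change was −0.24 (adjusted p = 0.0235). Its values were 25.5, 23.4 and 24.3 in VEC and 19.8, 20.5 and 21.3 in Q63E, and it kept its call after the neighbourhood subtraction (−0.28, adjusted p = 0.0205). It did not pass without VEC replicate 1 (adjusted p = 0.0657), VEC replicate 3 (0.0671), Q63E replicate 1 (0.0765) or Q63E replicate 2 (0.0662). GPT2, the mitochondrial alanine aminotransferase, had means of 25.5 ± 0.905 and 28.6 ± 2.40 and did not pass (log2 fold change 0.16, adjusted p = 0.146).

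Among the enzymes of mitochondrial folate metabolism in the set, neither SHMT2 nor MTHFD2 passed. MTHFD2L and the folate carrier SLC25A32, from a further list, are described below. SHMT2, which splits serine into glycine and a folate-bound carbon unit, had values of 210, 198 and 192 in VEC and 189, 186 and 177 in Q63E. Its groups were just apart, with a log2 fold change of −0.12 (95% interval −0.23 to −0.01, adjusted p = 0.114). MTHFD2, which oxidises that carbon unit, had 93.8, 84.8 and 91.8 in VEC and 86.4, 91.4 and 80.2 in Q63E, and its log2 fold change of −0.07 did not pass (95% interval −0.22 to 0.08, adjusted p = 0.469). ALDH1L2, the mitochondrial formyltetrahydrofolate dehydrogenase, was listed at 0.48, 0.64 and 0.52 in VEC and 0.36, 0.47 and 1.18 in Q63E. It stayed below the minimum mean and was not tested.

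The amino acid transporters held the clearest rise, in the 2 chains of 1 transporter. SLC7A5 (LAT1, the light chain that carries leucine and other large neutral amino acids, ENSG00000103257, chromosome 16 from 87830023 to 87869488) had values of 237, 250 and 251 in VEC and 342, 338 and 321 in Q63E. Its mean rose 1.36-fold, with a log2 fold change of 0.44 (SE 0.04, adjusted p = 0.000775). SLC3A2 (CD98, the heavy chain that brings LAT1 to the cell surface, ENSG00000168003, chromosome 11 from 62856102 to 62888875) had 182, 178 and 189 in VEC and 257, 262 and 239 in Q63E. It rose 1.38-fold, with a log2 fold change of 0.46 (SE 0.05, adjusted p = 0.00103). For both chains every Q63E library lay above every VEC library, and both calls held in all 13 alternative fits. After the neighbourhood subtraction the log2 fold change was 0.29 (adjusted p = 0.00801) for SLC7A5 and 0.42 (adjusted p = 0.00262) for SLC3A2. The FPKM of SLC7A5 was 1.35 ± 0.058 times that of SLC3A2 in VEC and 1.32 ± 0.0273 times in Q63E, so their proportion moved by less than the spread between VEC libraries.

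The other 3 transporters did not pass. SLC7A11, the cystine-glutamate exchanger that also pairs with the SLC3A2 chain, had 9.40, 9.63 and 9.28 in VEC and 8.10, 8.76 and 8.82 in Q63E. It was lower in every Q63E library, with a log2 fold change of −0.13 (adjusted p = 0.216). Its neighbours had a median of −0.31, and after subtraction its log2 fold change was 0.18 (adjusted p = 0.138). SLC7A1, which imports arginine and lysine, lay between 33.01 and 34.7 in VEC and between 31.2 and 32.4 in Q63E (log2 fold change −0.08, adjusted p = 0.239). SLC38A2, a sodium-coupled importer of small neutral amino acids, had 129, 157 and 155 in VEC and 151, 154 and 144 in Q63E, all Q63E libraries within the VEC range (log2 fold change 0.03, 95% interval −0.16 to 0.22, adjusted p = 0.82).

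Among the 9 cytoplasmic tRNA synthetases, which charge tRNAs with their amino acids, 3 rose, 1 fell and 5 did not pass. The called share was 44.4%, beside 25.3% of all genes tested, and the median log2 fold change was −0.01. After the neighbourhood subtraction 0 of the 9 were called higher and IARS1 alone was called lower. IARS1 (isoleucine, ENSG00000196305, chromosome 9 from 92210207 to 92293756) had values of 81.1, 82.0 and 85.5 in VEC and 59.7, 62.2 and 60.2 in Q63E. All Q63E libraries lay below all VEC libraries, and the log2 fold change was −0.44 (SE 0.04, adjusted p = 0.00065). The call held in all 13 alternative fits. Its neighbours were lower too (median −0.24, 42 of 50 below 0), and after subtraction the log2 fold change was −0.21 (adjusted p = 0.0176).

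MARS1 (methionine, ENSG00000166986) had 114, 116 and 135 in VEC and 146, 148 and 164 in Q63E. It rose without overlap, with a log2 fold change of 0.33 (SE 0.08, adjusted p = 0.0266). The call was lost in 5 of the 6 fits that left out 1 library, all except that without VEC replicate 3, with adjusted p up to 0.0813. It was also lost after the neighbourhood subtraction (0.28, adjusted p = 0.0581), where the neighbours had a median of 0.04. The fits with no filter on low values and with no trend lost the call of MARS1 too.

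AARS1 (alanine, ENSG00000090861) had 77.0, 75.4 and 81.5 in VEC and 91.0, 101 and 89.4 in Q63E. It was higher in every Q63E library, with a log2 fold change of 0.26 (SE 0.06, adjusted p = 0.0191). Leaving out VEC replicate 1 (adjusted p = 0.0581) or VEC replicate 2 (0.0606) ended the call, and so did the neighbourhood subtraction (0.20, adjusted p = 0.0658). SARS1 (serine, ENSG00000031698) had 109, 106 and 105 in VEC and 120, 124 and 116 in Q63E. Its rise, with a log2 fold change of 0.17 (adjusted p = 0.0243), did not pass without VEC replicate 2 (0.0679), VEC replicate 3 (0.0757), Q63E replicate 1 (0.069) or Q63E replicate 2 (0.065). In the fit with no trend SARS1 did not pass either. Its neighbours had a median of 0.21, and after subtraction its log2 fold change was −0.06 (adjusted p = 0.398).

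Of the synthetases that did not pass, NARS1 (asparagine) was higher in every Q63E library (97.6 to 108, against 87.2 to 94.4 in VEC), with a log2 fold change of 0.16 (adjusted p = 0.0682). EPRS1 (glutamate and proline) ran from 48.6 to 51.0 in VEC and from 47.6 to 48.4 in Q63E, with a log2 fold change of −0.04 (adjusted p = 0.463). TARS1 (threonine), GARS1 (glycine) and WARS1 (tryptophan) overlapped between the groups. TARS1 had means of 141 ± 2.59 and 140.1 ± 3.20, and its interval from −0.09 to 0.07 was the narrowest of the 31 genes. The intervals of GARS1 (−0.25 to 0.15) and WARS1 (−0.28 to 0.14) were wider.

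Neighbour medians lay furthest from 0 for 6 of the 33 genes. Of the 31 tested genes 4 lay where the neighbour median was −0.2 or lower (ATF4, PSAT1, SLC7A11 and IARS1), 3 of them called lower and 0 called higher. In 2 (PHGDH and SARS1) it was 0.2 or higher, and both were called higher. Among the remaining 25 genes 5 were called higher and 3 lower. Over all genes tested, 11.3% were called higher and 14% lower. Shares of all genes within such stretches were not computed, so these counts describe the 31 genes alone. AARS1 and MARS1 also lost their calls after the subtraction, with neighbour medians of only 0.06 and 0.04. The 50 neighbours of ATF4 spanned 3.46 Mb, those of IARS1 13.1 Mb, and those of PHGDH 31.9 Mb, from both sides of the centromere of chromosome 1. The part of these regional shifts in the changes of the genes was not tested.

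**Figure D3:**
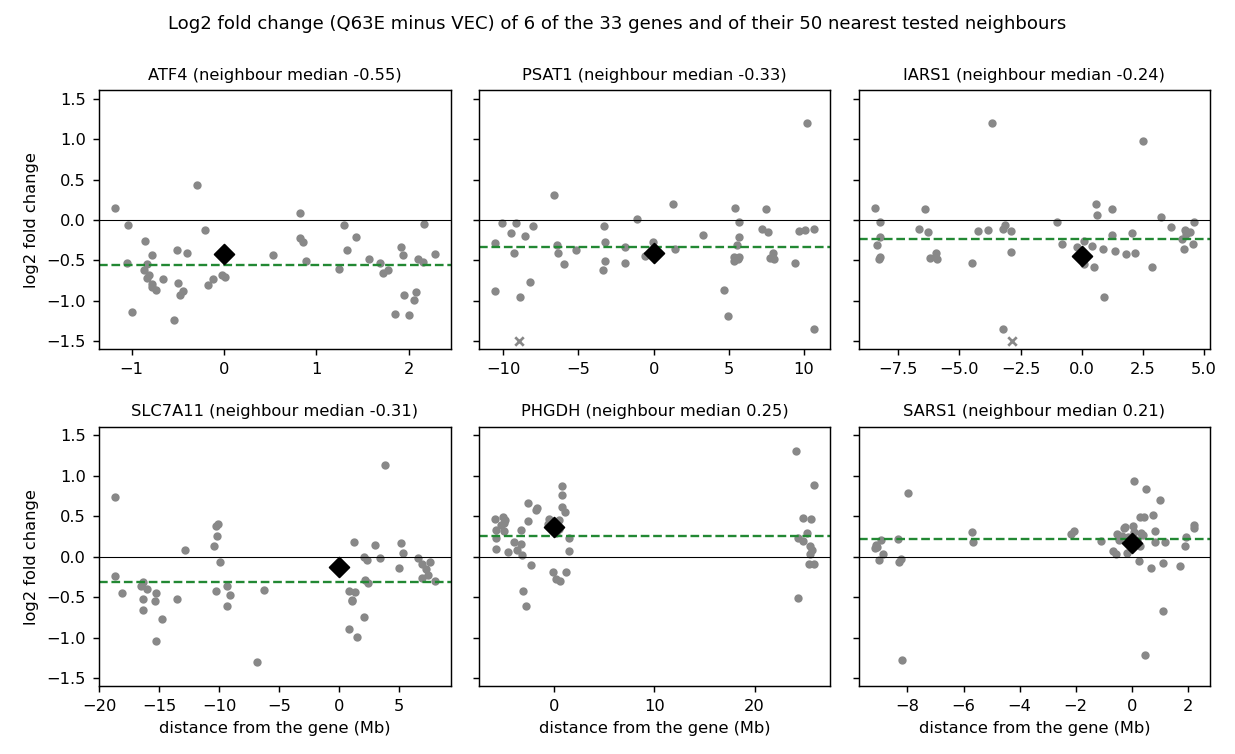
Log2 fold change (Q63E minus VEC) of 6 genes (diamonds) and of the 50 nearest tested genes outside the set of 33 (grey points) against the distance of their starts in Mb; the dashed line is the neighbour median, and crosses at −1.5 stand for the neighbours ENTREP1 (−1.79) and SEMA4D (−1.78). The diamond of ATF4 lies above its dashed line at −0.55, and that of IARS1 lies below its own at −0.24.

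Further genes of the pathway were read from 9 lists in the same fit. Their called shares, here and below, stand beside 25.3% of all genes tested, 11.3% higher and 14% lower. The eIF2 kinases, eIF2, eIF2B and their regulators had 1 risen and 2 fallen of 17 (17.6%), with a median of 0.02. None of the kinases EIF2AK1 to EIF2AK4 passed. EIF2B5, the catalytic subunit of the exchange factor that recharges eIF2, had means of 30.9 ± 1.27 in VEC and 23.5 ± 2.13 in Q63E. Its fall (log2 fold change −0.39, adjusted p = 0.012) did not pass after the neighbourhood subtraction (0.0905). PPP1R15B, the constitutive counterpart of PPP1R15A, fell by 0.31 on the log2 scale, with means of 15.02 ± 0.949 and 11.9 ± 0.463 (adjusted p = 0.0196). With 1 library left out it passed only without VEC replicate 1 or Q63E replicate 1 (adjusted p up to 0.0655 in the others). EIF2B1 rose by 0.21 on the log2 scale, with means of 26.5 and 30.7 (adjusted p = 0.0187). It passed only without VEC replicate 3 or Q63E replicate 2 (up to 0.0574 in the others), and not after the subtraction (0.073).

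Other ATF and C/EBP factors had 2 risen and 1 fallen of 7 tested (42.9%, beside 25.3% of all genes tested). ATF2 rose, with means of 18.5 in VEC and 23.3 in Q63E (log2 fold change 0.32, adjusted p = 0.00704), and kept its call in all 13 alternative fits. ATF7 rose (0.36, adjusted p = 0.0236) and CEBPD fell (−0.46, adjusted p = 0.0223), but with 1 library left out ATF7 passed only without VEC replicate 1 and CEBPD only without VEC replicate 2 or Q63E replicate 1 (adjusted p up to 0.0796 and 0.0749 in the others). CEBPD lay among lower neighbours (median −0.24, 40 of 50 below 0), and after subtraction it had −0.23 and did not pass (adjusted p = 0.186). Of 12 tested genes among other reported ATF4 targets, 3 rose and 1 fell (33.3%), with a median of 0.03. DDIT4, an mTORC1 inhibitor that also responds to hypoxia, rose by 0.53 on the log2 scale, with means of 584 in VEC and 844 in Q63E (adjusted p = 0.0136). Without VEC replicate 3 or Q63E replicate 1 its adjusted p was 0.0509 and 0.0502, and after the neighbourhood subtraction 0.0532. EIF4EBP1, a translation repressor, fell by 0.52 on the log2 scale, with means of 192 ± 7.88 and 133 ± 3.94 (adjusted p = 0.000538), in a stretch where neighbours had a median of −0.35. After subtraction it was −0.18 (adjusted p = 0.0438). VEGFA rose (0.40, adjusted p = 0.0306) but, of the fits with 1 library left out, passed only without Q63E replicate 3 (up to 0.0936 in the others). The third gene to rise, NIBAN1 (0.22, adjusted p = 0.0299), passed in none of those fits (up to 0.0923).

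Enzymes next to those of the 33 genes gave the largest further changes. CBS, which starts the conversion of homocysteine to cysteine, had means of 22.5 ± 1.17 in VEC and 10.7 ± 1.11 in Q63E, a log2 fold change of −1.01 (adjusted p = 0.0006). It kept its call in all 13 alternative fits and had −0.67 (adjusted p = 0.00308) after the neighbourhood subtraction, while CTH, the next enzyme, did not pass (4.62 and 4.33, adjusted p = 0.773). MAT2A, which makes S-adenosylmethionine, rose by 0.50 on the log2 scale, with means of 61.7 ± 4.31 and 87.97 ± 7.44 (adjusted p = 0.00526). MTHFD2L, a relative of MTHFD2, fell by 0.67 on the log2 scale, with means of 5.18 ± 0.458 and 2.87 ± 0.166 (adjusted p = 0.0052), where its neighbours had a median of −0.44. After subtraction it did not pass (−0.25, adjusted p = 0.157). In all, the one-carbon, glycine and transsulfuration list had 1 risen and 4 fallen of 15 tested (33.3%, beside 25.3% of all genes tested). The other two that fell were TYMS (thymidylate synthase, −0.23, adjusted p = 0.0153) and SLC25A32 (the mitochondrial folate carrier, −0.20, adjusted p = 0.0349). TYMS passed in all 13 alternative fits, and SLC25A32, with 1 library left out, only without Q63E replicate 2 (up to 0.103 in the others) and, at −0.06, not after the neighbourhood subtraction (0.442). ASS1, the argininosuccinate synthase, fell by 0.96 on the log2 scale, with means of 3.80 ± 0.431 and 1.48 ± 0.305 (adjusted p = 0.0051). PYCR3, of proline synthesis, fell (−0.42, adjusted p = 0.00527), and BCAT2, the mitochondrial branched-chain transaminase, rose (0.29, adjusted p = 0.0113). These belong to the list of other amino acid synthesis enzymes, with 2 risen and 4 fallen of 13 (46.2%). The remaining calls of that list were GLUL (−0.18, adjusted p = 0.0149), PYCR1 (−0.21, adjusted p = 0.0466) and ALDH18A1 (0.15, adjusted p = 0.0241). With 1 library left out GLUL always passed, whereas PYCR1 and ALDH18A1 passed only without Q63E replicate 2 (adjusted p up to 0.132 and 0.0728 in the others). After the neighbourhood subtraction none of these 3 passed: GLUL had −0.14 (adjusted p = 0.0805), PYCR1 −0.08 (adjusted p = 0.475) and ALDH18A1 0.11 (adjusted p = 0.146).

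Among the remaining synthetases calls again went in both directions. Of 14 other cytoplasmic synthetases and scaffold genes 2 rose and 2 fell (28.6%, beside 25.3% of all genes tested). QARS1 (glutamine) rose by 0.42 on the log2 scale, with means of 203 ± 13.2 and 271 ± 3.97 (adjusted p = 0.00232), beside neighbours with a median of 0.38, and had 0.04 (adjusted p = 0.665) after subtraction. RARS1 (arginine) fell (−0.41, adjusted p = 0.00185) and kept its call in all 13 alternative fits. CARS1 (cysteine) also fell (−0.21, adjusted p = 0.0471), but with 1 library left out it passed only without Q63E replicate 2 (up to 0.133 in the others) and not after the neighbourhood subtraction (0.102). Among 17 mitochondrial synthetases HARS2 (histidine) alone rose (0.25, adjusted p = 0.0161) and 0 fell (5.88% called). HARS2 passed without VEC replicate 1 or Q63E replicate 3 and in no other such fit (up to 0.0565), nor after the subtraction (0.0522). The abundant CARS2 (53.9 and 52.9, adjusted p = 0.7) and IARS2 (64.0 and 68.5, adjusted p = 0.0998) did not pass, and IARS2 did not share the fall of IARS1, a difference that was not tested. Of 11 tested other plasma membrane transporters 2 rose (18.2%), SLC1A4 (0.44, adjusted p = 0.0358) and SLC38A1 (0.14, adjusted p = 0.0405). Neither call held when any 1 library was left out (adjusted p up to 0.0922 and 0.0989) or after the neighbourhood subtraction (0.122 and 0.261). Genes of amino acid sensing upstream of mTORC1 had 2 risen and 2 fallen of 17 (23.5%). CASTOR1, an arginine sensor, fell (−0.48, adjusted p = 0.0464), as did WDR24 (−0.36, adjusted p = 0.0234), while NPRL2 (0.45, adjusted p = 0.0342) and MTOR (0.20, adjusted p = 0.0441) rose. With 1 library left out CASTOR1 passed only without VEC replicate 2, WDR24 only without Q63E replicate 2, NPRL2 only without VEC replicate 1 or Q63E replicate 2, and MTOR in no fit. The highest adjusted p of these fits was 0.13 for CASTOR1, 0.0721 for WDR24, 0.106 for NPRL2 and 0.124 for MTOR. NPRL2 lay among higher neighbours (median 0.32, 48 of 50 above 0), and after subtraction it had 0.12 and did not pass (adjusted p = 0.516). CASTOR1 (−0.41, adjusted p = 0.121) and MTOR (0.20, adjusted p = 0.0722) did not pass after subtraction either, while WDR24 did (0.0189).

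**Figure D4:**
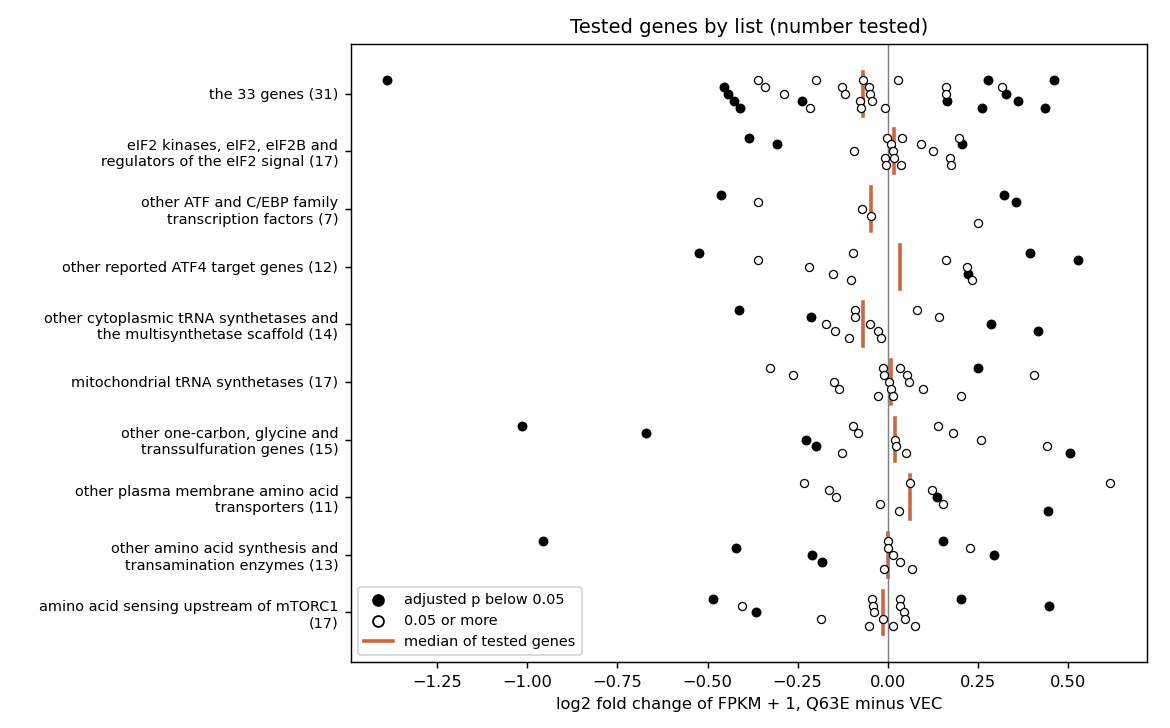
Log2 fold change of FPKM + 1 (Q63E minus VEC) of each tested gene in the set of 33 and in 9 further lists of the pathway, filled where the adjusted p is below 0.05, with the median of each list as a bar and the number tested in brackets. Medians of all 10 rows lie between −0.07 and 0.06, and CHAC1, CBS and ASS1 are the points furthest to the left.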

How the data were processed

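Total RNA libraries of T24 cells were compared, 3 VEC and 3 Q63E, grouped by their labels. The authors deposited 1 table of values per library, to 2 decimals, which are taken as FPKM, scaled by the authors to gene length and library size. No header or label names the unit, which was inferred because totals differ between libraries and short genes such as MT-ATP8 rank high. HISAT2 2.1.0, Bowtie2 and the build GRCh38.p10 are listed without a role, per the submitters' processing notes. Which program counted the reads, and with which annotation, is not given in the sources used here. Steps of single reads were sought among low values, and at best 24.1% to 25.8% of values lay within 0.1 of a whole number, where 20% would without steps. Depth is therefore unknown, and no counting interval is given.

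Of 58882 rows, 649 assembled loci without a gene name (0.274% to 0.511% of summed values) were left out of tests. Symbols came from a gene table, and coordinates from GENCODE 29 on GRCh38. Genes with a mean of at least 1 (13346) were tested on log2(FPKM + 1) with limma 3.58.1 (eBayes with trend, two-sided, group alone) in R 4.3.3, with Benjamini-Hochberg adjustment over all genes and a threshold of 0.05. Fold changes on this scale understate those of low genes. The steps were tested on simulated data. Members and lists were chosen with earlier results of these data known. All 33 genes are named, with up to 3 called genes of the largest change per list, or the 2 most abundant where fewer than 2 passed. The remaining called genes of each list, CTH, the 4 eIF2 kinases, ENTREP1 and SEMA4D are named outside this rule, after their values were seen, except for 1 gene that is not reported here. Alternatives were another pseudocount, no filter, other scalings, no trend, a replicate block, the neighbourhood subtraction and leaving out each library.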

Additional observations from a re-analysis of the deposited data

How the results depend on the processing

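Of the 13 members called, 5 (ATF5, CHAC1, SLC7A5, SLC3A2 and IARS1) kept their call in all 13 alternative fits, and 7 kept it whichever library was left out. The same shares were not computed over all called genes, so these counts describe the members alone. Members called higher numbered 7, but 4 with a replicate block, 3 after the neighbourhood subtraction and 3 to 6 when 1 library was left out. Members called lower numbered 6, but 5 with a replicate block, 4 after the neighbourhood subtraction and 5 to 7 without 1 library. The neighbourhood subtraction lost ATF4 and PSAT1 among these. Over all genes, 1510 were higher, but 942 with the replicate block and 992 to 1138 without 1 library. Lower genes numbered 1873, but 1217 after the neighbourhood subtraction and 1314 to 1483 without 1 library. Same-numbered libraries did not deviate together (r = −0.0419, −0.00866 and −0.0249 across genes), so the numbers are not taken to pair the samples, and none of the 6 libraries correlated best with its own number. The replicate block lost the calls of TRIB3, PCK2, AARS1 and SARS1 and, of the other genes named, those of PPP1R15B, EIF2B1, VEGFA, SLC1A4, SLC38A1, CASTOR1, WDR24, NIBAN1, CARS1, HARS2, SLC25A32, GLUL, PYCR1, ALDH18A1 and MTOR. The sign changed after the neighbourhood subtraction for ATF4 (0.13), SLC7A11 (0.18), SLC38A2 (−0.0301) and SARS1 (−0.0592). The subtraction itself removes a regional median, and the cause of the regional shifts was not tested. Without 1 library, log2 fold changes near 0 crossed it for PSPH (−0.16 to 0.0744), SLC38A2 (−0.0615 to 0.0768), TARS1 (−0.0274 to 0.00639), CARS2 (−0.0616 to 0.00275) and CTH (−0.31 to 0.0290). Scaling by equal totals without mitochondrial genes or by median ratios changed no call of a member. Among the other genes named, the first lost SLC38A1, NIBAN1, ALDH18A1 and MTOR, and the second CARS1 and PYCR1. The fit with no filter lost MARS1 among the members and CEBPD, VEGFA, SLC1A4, CASTOR1, NPRL2, WDR24, CARS1, PYCR1 and MTOR among the others. The fit with no trend lost MARS1 and SARS1 and, of the others, VEGFA, SLC38A1, NPRL2, CARS1, PYCR1, ALDH18A1 and MTOR. With unknown depth, low members such as NUPR1 and ALDH1L2 (adjusted p = 0.814 and 0.832 without a filter) cannot be judged.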
